A study of Danio rerio with 8 samples.

Results

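Valve and epicardium genes are represented here by 7 members: *has2*, *notch1b*, *bmp4*, *klf2a*, *tbx2b*, *tbx18* and *wt1a*. They were chosen by name, and 18 probes of the arrays lay on their RefSeq transcripts, out of 39162 probes and 12792 named genes. Probes were given a symbol through the accession in the scanner files and a table of RefSeq transcripts with current names, which covered 63.1% of the probes. Gene names in the scanner files were not used, so a member probe without such an accession would be missed. The transcripts were NM_153650 for *has2* (2 probes), NM_131302 for *notch1b* (3 probes), NM_131342 for *bmp4* (3 probes), NM_131856 for *klf2a* (2 probes), NM_131051 for *tbx2b* (3 probes), NM_153665 for *tbx18* (2 probes) and NM_131046 for *wt1a* (3 probes). In the 3 scanner files at hand, all 18 probes were well above background and 0 were saturated.

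The heart valves arise in the atrioventricular canal, the narrow ring between atrium and ventricle. There the myocardium makes Bmp ligands and Tbx2, which hold back chamber genes, while the overlying endocardium switches on Notch1 and, under the shear of flowing blood, Klf2. Between both layers lies a cushion of matrix rich in hyaluronan, the product of Has2. The epicardium is the outer cell sheet of the heart; it comes from the proepicardium, a cluster of cells marked by Tbx18 and Wt1. Both tissues take shape after the stage sampled here, and each of the 7 genes is also transcribed outside the heart, so that the arrays read the whole embryo and not these tissues.

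The study asked what the microRNA miR-19a does in zebrafish embryos depleted of Tbx5a, a T-box transcription factor of heart and pectoral fin. AB embryos received 1.5 ng of morpholino and 0.25 ng of microRNA mimic and were pooled by 50 at 24 hpf (hours post fertilisation), 1 pool to each 1-colour Agilent array. MO-Tbx5a+miR-19a embryos (n = 3 arrays) carried a translation-blocking *tbx5a* morpholino with the miR-19a mimic, MO-Tbx5a embryos (n = 3) that morpholino with the control mimic miR-Ct, and MO-Ct embryos (n = 2) a control morpholino with miR-Ct. A translation-blocking morpholino is an antisense oligomer that keeps its target transcript from being translated, and a mimic is a synthetic duplex that supplies the mature microRNA. The treatment label of the first group names MO-19a in place of the mimic; its titles and the design text name miR-19a and were followed. The labels give 0.5 ug of RNA and one labelling kit for MO-Tbx5a+miR-19a but 200 ng and another kit for the other groups, and the submitters' processing notes name Agilent Feature Extraction 9.1 for MO-Tbx5a+miR-19a but 10.7 for MO-Tbx5a and MO-Ct. In comparisons with MO-Tbx5a+miR-19a, the kit, the RNA amount, the version of the image extraction software and the treatment therefore cannot be told apart.

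Values are log2 of normalised signal. Array medians were between 7.77 and 7.80. A probe with a mean under 6 is called dim here. Of the member probes these were *has2* A_15_P135336 (5.49), *klf2a* A_15_P218661 (5.07), *tbx18* A_15_P626796 (5.92) and *wt1a* A_15_P629231 (5.34). No named probe stood for *tbx5a*, so its level was not checked, and a block of translation need not change it. The 3 scanner files, all labelled MO-Tbx5a+miR-19a, correlated with the normalised columns of their own group at r = 0.927 to 0.941 and with those of MO-Ct at r = 0.934 to 0.948, over probes. Taken as deviations from the mean of the 3, replicates 1, 2 and 3 correlated with their own columns at r = -0.086, 0.248 and 0.067. These values do not settle whether each file belongs to its column. The scanner files were used for names and quality flags only. The labels do not say that the arrays of a group came from separate clutches, so the p-values measure the spread between these arrays. In whole embryos, fewer cells of a type and less RNA per cell cannot be told apart.

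A probe is called where its fold change was above 1.3 (0.38 on the log2 scale), with p and Benjamini-Hochberg adjusted p under 0.05 in limma over all probes. For MO-Tbx5a vs MO-Ct, 3 of the 18 probes were called (2 higher, 1 lower), 16.7% against 38.4% of all probes (18.7% higher and 19.6% lower). For MO-Tbx5a+miR-19a vs MO-Tbx5a, 5 of 18 were called, each lower, 27.8% against 42.2% of all probes (20.2% higher and 21.9% lower). For MO-Tbx5a+miR-19a vs MO-Ct, 2 of 18 were called, both of *tbx2b* and both lower, 11.1% against 11.2% of all probes (5.24% higher and 5.95% lower). By the brightest probe of each gene, 1 of the 7 genes was called for MO-Tbx5a vs MO-Ct (37.1% of all named genes), 3 for MO-Tbx5a+miR-19a vs MO-Tbx5a (41.3%) and 1 for MO-Tbx5a+miR-19a vs MO-Ct (12.1%). By the mean of the probes of each gene these were 0 (34.8% of all named genes), 2 (38.1%) and 1 (1534 of 12792 genes). The probe means gave 0 genes at an unadjusted p under 0.05 for MO-Tbx5a vs MO-Ct as well. The share of the 18 probes called was in no comparison above that of all probes. The called probes belonged to *tbx2b*, *bmp4* and *notch1b*, and 12 probes, among them every probe of *klf2a*, *has2*, *tbx18* and *wt1a*, were called in no comparison.

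The median change of the 18 probes was 0.03 on the log2 scale for MO-Tbx5a vs MO-Ct, against 0.01 over all probes. It was -0.24 for MO-Tbx5a+miR-19a vs MO-Tbx5a, against -0.02 over all probes, and for MO-Tbx5a+miR-19a vs MO-Ct -0.20, against -0.02. Taken without sign, the median change was 0.19, 0.26 and 0.20 in the same order of comparisons, against 0.30, 0.32 and 0.18 over all probes. In 8 of the 18 probes MO-Tbx5a had the highest group mean and MO-Tbx5a+miR-19a the lowest. The share of all probes with this order was not counted, so the members cannot be said to differ from other probes in it. The first 2 comparisons share the MO-Tbx5a arrays, and the others share the MO-Ct or MO-Tbx5a+miR-19a arrays, so their values are set side by side and not counted as separate evidence.

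**Figure D1:**
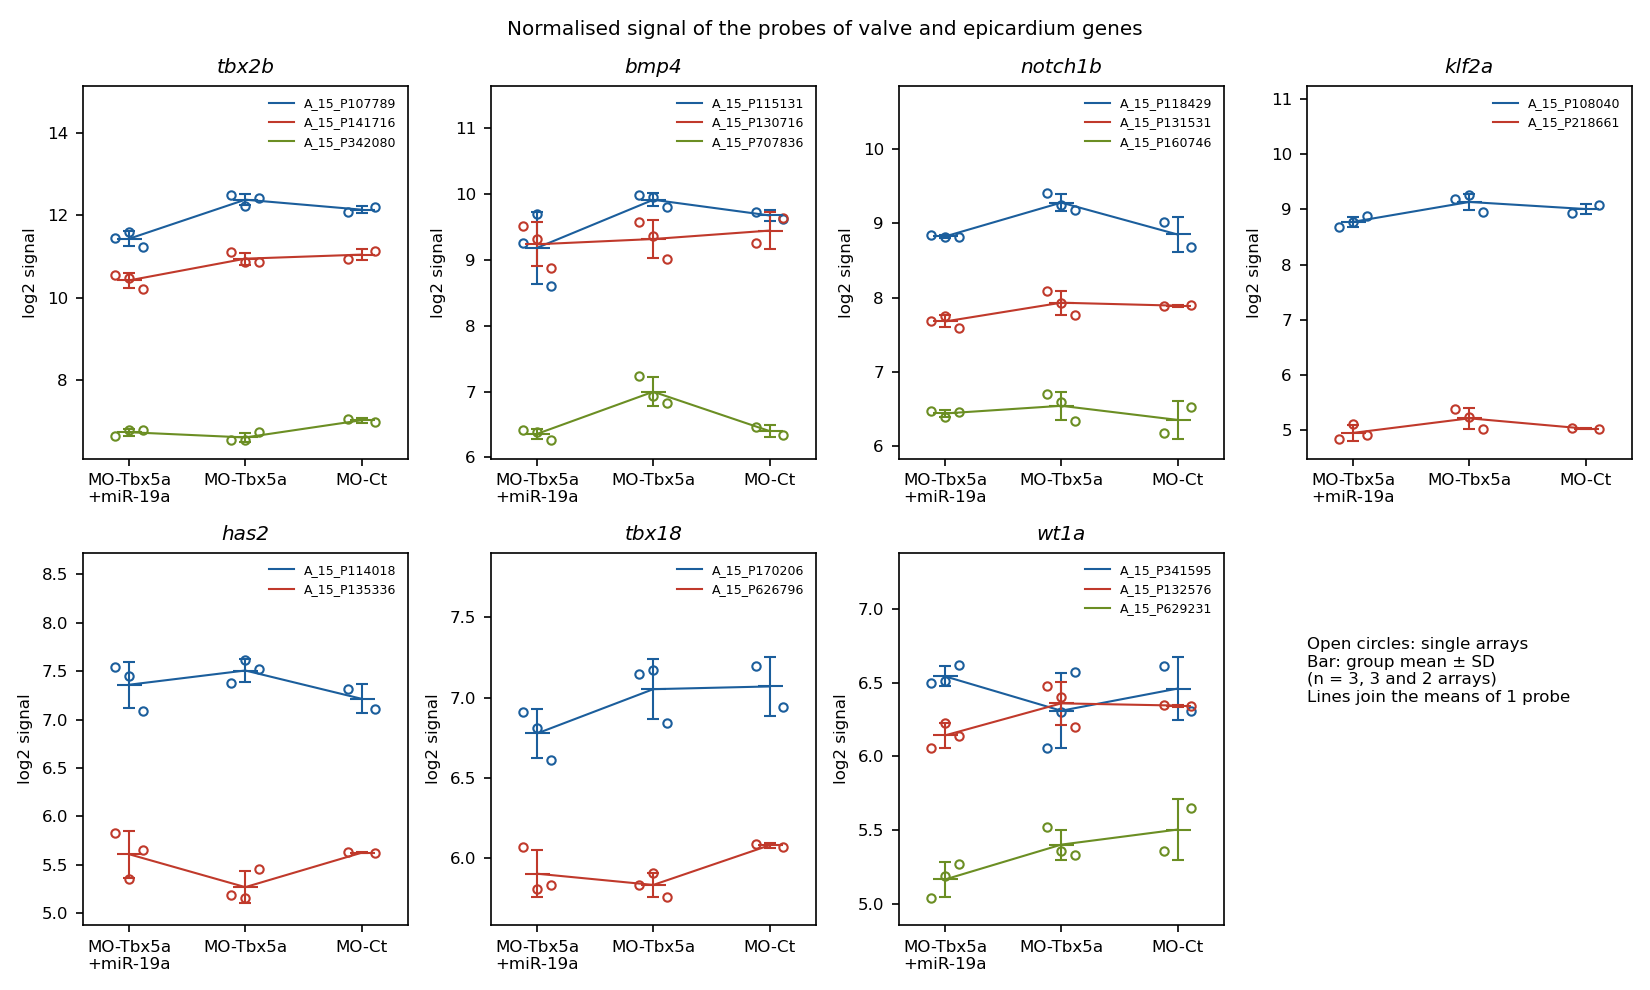
Log2 signal (vertical axes) of the 18 probes on single arrays (circles), with group means and SD, for MO-Tbx5a+miR-19a (n = 3), MO-Tbx5a (n = 3) and MO-Ct (n = 2). In the brightest *tbx2b* probe the 3 MO-Tbx5a+miR-19a arrays, at 11.24 to 11.60, lie below all other arrays, whereas the probes of 1 gene often differ in course.

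*tbx2b*, a T-box repressor of chamber genes in the atrioventricular canal, held the largest change. Its brightest probe, A_15_P107789, read 11.45, 11.60 and 11.24 in MO-Tbx5a+miR-19a, 12.49, 12.22 and 12.42 in MO-Tbx5a, and 12.08 and 12.19 in MO-Ct. All MO-Tbx5a+miR-19a arrays were below all arrays of the other groups. The change was -0.95 ± 0.12 (SE) against MO-Tbx5a, a fold of 0.519 (limma adjusted p = 5.98e-05), and -0.70 ± 0.14 against MO-Ct, a fold of 0.613 (limma adjusted p = 0.00802). MO-Tbx5a was above MO-Ct without overlap, but the difference of 0.24 ± 0.14 was not called (limma adjusted p = 0.184).

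The next *tbx2b* probe, A_15_P141716, read 10.56, 10.48 and 10.22 in MO-Tbx5a+miR-19a, 11.11, 10.87 and 10.86 in MO-Tbx5a, and 10.95 and 11.14 in MO-Ct. Again the MO-Tbx5a+miR-19a arrays were the lowest 3. The change was -0.53 ± 0.13 (SE) against MO-Tbx5a (limma adjusted p = 0.00403) and -0.62 ± 0.14 against MO-Ct (limma adjusted p = 0.0157). The MO-Tbx5a and MO-Ct arrays of this probe overlapped.

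The third *tbx2b* probe, A_15_P342080, took another course. It read 6.64, 6.79 and 6.79 in MO-Tbx5a+miR-19a, 6.54, 6.56 and 6.74 in MO-Tbx5a, and 7.07 and 6.99 in MO-Ct. The MO-Ct arrays were the highest, and MO-Tbx5a was below MO-Ct (change -0.42 ± 0.12 SE, limma adjusted p = 0.0151), while MO-Tbx5a+miR-19a overlapped MO-Tbx5a and lay below MO-Ct (-0.29, not called, limma adjusted p = 0.143). Averaged over its 3 probes, *tbx2b* changed in MO-Tbx5a+miR-19a by -0.45 against MO-Tbx5a (limma adjusted p = 0.00151) and by -0.54 against MO-Ct (limma adjusted p = 0.00614).

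Without MO-Ct replicate 2, both *tbx2b* differences from MO-Ct in MO-Tbx5a+miR-19a were no longer called, at -0.65 for A_15_P107789 (limma adjusted p = 0.0901) and -0.53 for A_15_P141716 (limma adjusted p = 0.158). That of A_15_P141716 was not called without MO-Ct replicate 1 either (-0.72, limma adjusted p = 0.0527). The lower value of A_15_P342080 in MO-Tbx5a was not called without MO-Ct replicate 1, MO-Ct replicate 2 or MO-Tbx5a replicate 1 (limma adjusted p = 0.0933, 0.0539 and 0.0509). Both changes against MO-Tbx5a stayed called without any 1 array, between -1.03 and -0.85 for A_15_P107789 and between -0.60 and -0.43 for A_15_P141716.

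The paralogue *tbx2a*, also a T-box repressor, was measured by 3 probes of its own. Its brightest probe, A_15_P112093, read 10.93, 11.12 and 10.84 in MO-Tbx5a+miR-19a, 11.84, 11.45 and 11.51 in MO-Tbx5a, and 11.57 and 11.73 in MO-Ct. The MO-Tbx5a+miR-19a arrays were below all others, with changes of -0.64 ± 0.13 (SE) against MO-Tbx5a (limma adjusted p = 0.00146) and -0.69 ± 0.15 against MO-Ct (limma adjusted p = 0.0118). The other *tbx2a* probes changed by -0.77 and -0.79 against MO-Tbx5a, both called, and by -0.46 (called) and -0.42 (not called, limma adjusted p = 0.0686) against MO-Ct. How far the probes of such paralogues read each other's transcript was not tested.

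*bmp4*, a secreted ligand of the Bmp pathway made by the canal myocardium, was lower in MO-Tbx5a+miR-19a than in MO-Tbx5a on 2 of its 3 probes. A_15_P115131 read 9.26, 9.69 and 8.60 in MO-Tbx5a+miR-19a, 9.99, 9.95 and 9.80 in MO-Tbx5a, and 9.73 and 9.62 in MO-Ct. The MO-Tbx5a+miR-19a arrays were spread over more than a log2 unit, and replicate 3 lay far below the others. The change against MO-Tbx5a was -0.73 ± 0.21 (SE), a fold of 0.603 (limma adjusted p = 0.011). Without any 1 array it stayed called, between -0.98 and -0.44. The difference from MO-Ct, -0.49 ± 0.23, was not called (limma adjusted p = 0.194), but it was without MO-Tbx5a+miR-19a replicate 2 (-0.74, limma adjusted p = 0.0307).

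The *bmp4* probe A_15_P707836 read 6.42, 6.38 and 6.27 in MO-Tbx5a+miR-19a, 7.24, 6.93 and 6.82 in MO-Tbx5a, and 6.46 and 6.34 in MO-Ct. MO-Tbx5a stood above both other groups, which overlapped. It rose by 0.60 ± 0.14 (SE) for MO-Tbx5a vs MO-Ct (limma adjusted p = 0.00455) and changed by -0.64 ± 0.12 for MO-Tbx5a+miR-19a vs MO-Tbx5a (limma adjusted p = 0.00103). Without MO-Ct replicate 2 the first of these was 0.54 and not called (limma adjusted p = 0.0506).

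The remaining *bmp4* probe, A_15_P130716, read 9.52, 9.32 and 8.87 in MO-Tbx5a+miR-19a, 9.57, 9.37 and 9.01 in MO-Tbx5a, and 9.25 and 9.64 in MO-Ct. Its groups overlapped in every comparison. The difference for MO-Tbx5a+miR-19a vs MO-Tbx5a was -0.08, with a 95% interval of -0.479 to 0.319. Averaged over its 3 probes, *bmp4* was lower in MO-Tbx5a+miR-19a than in MO-Tbx5a (change -0.48, limma adjusted p = 0.0134), and its difference of 0.24 for MO-Tbx5a vs MO-Ct was not called (limma adjusted p = 0.255).

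*notch1b*, a Notch receptor of the endocardium of the canal, changed on its brightest probe. A_15_P118429 read 8.84, 8.82 and 8.81 in MO-Tbx5a+miR-19a, 9.41, 9.25 and 9.18 in MO-Tbx5a, and 9.02 and 8.68 in MO-Ct. MO-Tbx5a was above all other arrays, and MO-Tbx5a+miR-19a lay between both MO-Ct arrays. The probe rose by 0.43 ± 0.13 (SE) for MO-Tbx5a vs MO-Ct, a fold of 1.35 (limma adjusted p = 0.0203), and changed by -0.46 ± 0.12 for MO-Tbx5a+miR-19a vs MO-Tbx5a, a fold of 0.729 (limma adjusted p = 0.00651). The rise was lost without MO-Ct replicate 2 (0.26, limma adjusted p = 0.237) or MO-Tbx5a replicate 1 (0.36, limma adjusted p = 0.0721).

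The other *notch1b* probes were not called. A_15_P131531 read 7.59 to 7.75 in MO-Tbx5a+miR-19a, 7.77 to 8.09 in MO-Tbx5a, and 7.88 and 7.90 in MO-Ct, with MO-Tbx5a+miR-19a below both other groups (-0.25 against MO-Tbx5a, limma adjusted p = 0.0815). A_15_P160746 read 6.39 to 6.47, 6.33 to 6.70, and 6.17 and 6.53 in the same groups, which overlapped. Averaged over the 3 probes, *notch1b* differed by 0.22 for MO-Tbx5a vs MO-Ct (limma adjusted p = 0.112) and by -0.27 for MO-Tbx5a+miR-19a vs MO-Tbx5a (limma adjusted p = 0.0298), the second too small in fold to be called.

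The probes *bmp4* A_15_P707836 and *notch1b* A_15_P118429 were the only 2 of the 18 called in both of the first 2 comparisons, higher in MO-Tbx5a than in MO-Ct and lower in MO-Tbx5a+miR-19a than in MO-Tbx5a. Of all probes, 28.1% were called in both, 13.7% in that order. MO-Tbx5a+miR-19a differed from MO-Ct by -0.04 (95% interval -0.345 to 0.258) for the *bmp4* probe and by -0.03 (-0.313 to 0.26) for the *notch1b* probe.

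**Figure D2:**
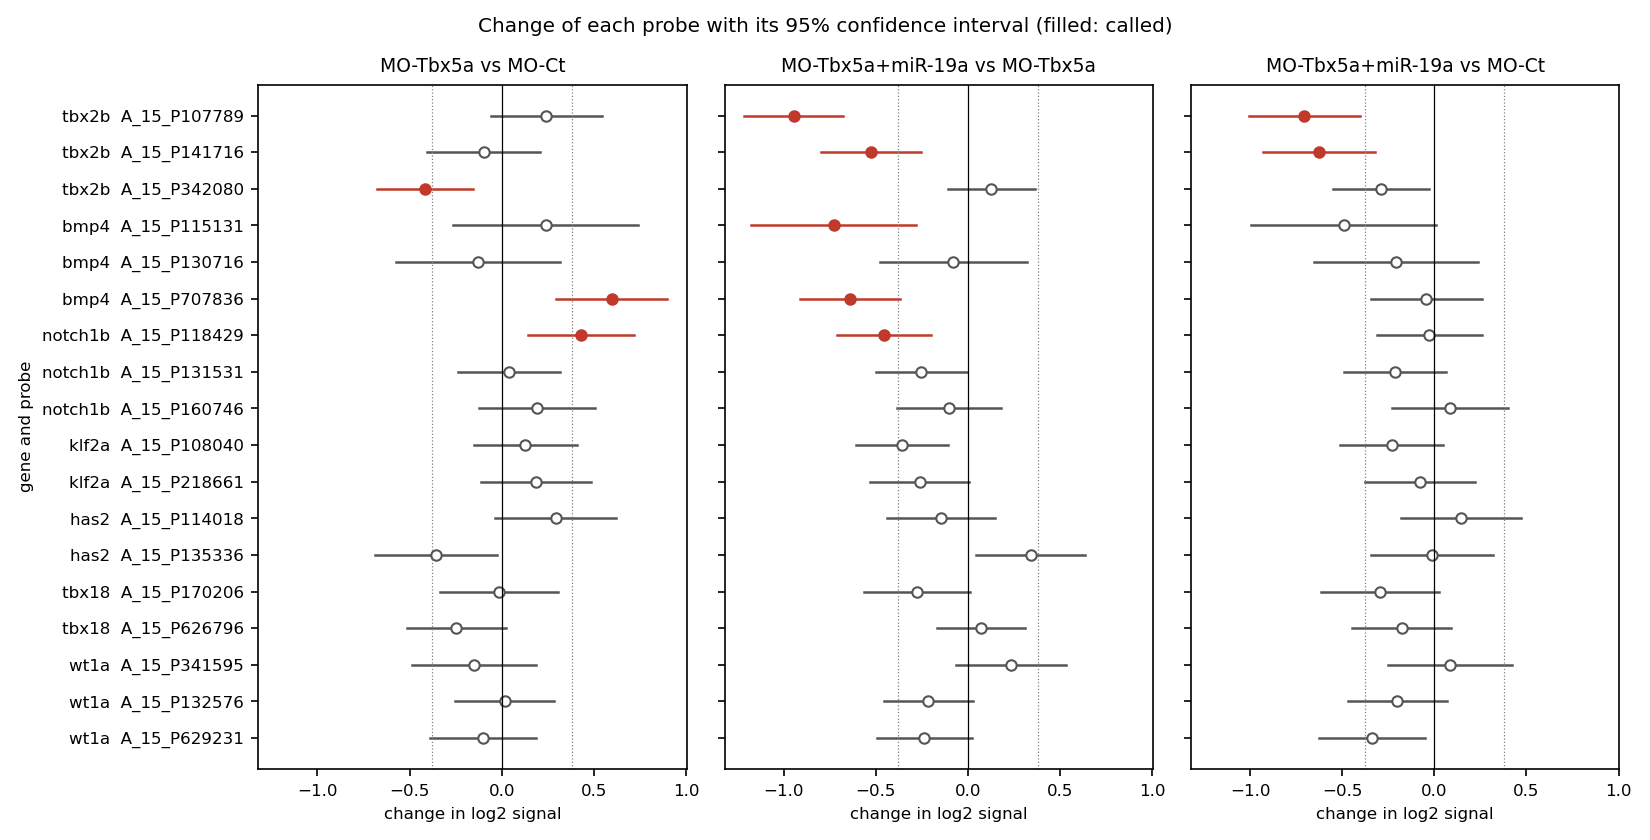
Change in log2 signal (horizontal axes) of each of the 18 probes in the 3 comparisons, with 95% intervals; filled red points are called, and dotted lines mark a fold of 1.3. Called points lie on both sides of 0 for MO-Tbx5a vs MO-Ct (2 higher, 1 lower) and only below 0 in the comparisons with MO-Tbx5a+miR-19a (5 and 2 probes).

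*klf2a*, a zinc finger factor of endothelium under flow, came close to the threshold. A_15_P108040 read 8.68, 8.77 and 8.87 in MO-Tbx5a+miR-19a, 9.19, 9.25 and 8.96 in MO-Tbx5a, and 8.94 and 9.07 in MO-Ct. The MO-Tbx5a+miR-19a arrays were below all others. The change against MO-Tbx5a was -0.36 ± 0.12 (SE), past the p threshold (limma adjusted p = 0.0206) but short of the 1.3-fold minimum, and so not called. Without MO-Tbx5a replicate 3 it was -0.45 and called (limma adjusted p = 0.00785), and without MO-Tbx5a+miR-19a replicate 3 it was -0.41 and called (limma adjusted p = 0.0268). A_15_P218661 read 4.84 to 5.11 in MO-Tbx5a+miR-19a, 5.02 to 5.39 in MO-Tbx5a, and 5.04 and 5.02 in MO-Ct, with overlap between all groups.

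*has2*, the enzyme that makes the hyaluronan of the cushions, had probes of opposite course. A_15_P114018 read 7.54, 7.45 and 7.09 in MO-Tbx5a+miR-19a, 7.38, 7.62 and 7.52 in MO-Tbx5a, and 7.32 and 7.11 in MO-Ct. The dim probe A_15_P135336 read 5.83, 5.35 and 5.65 in MO-Tbx5a+miR-19a, 5.19, 5.16 and 5.46 in MO-Tbx5a, and 5.63 and 5.62 in MO-Ct. MO-Tbx5a was above MO-Ct on the first (0.29 ± 0.15 SE, limma adjusted p = 0.142) and below it on the second (-0.35 ± 0.15, limma adjusted p = 0.0807), neither called. The values were -0.15 (limma adjusted p = 0.392) and 0.34 (limma adjusted p = 0.055) for MO-Tbx5a+miR-19a vs MO-Tbx5a. Without MO-Tbx5a replicate 3, A_15_P135336 was called in both, at -0.45 (limma adjusted p = 0.0373) and 0.43 (limma adjusted p = 0.0234), and without MO-Tbx5a+miR-19a replicate 2 in the second, at 0.47 (limma adjusted p = 0.0117).

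*tbx18*, a T-box factor of the proepicardium and epicardium that also marks somites, was not called in any comparison over all arrays. A_15_P170206 read 6.91, 6.81 and 6.61 in MO-Tbx5a+miR-19a, 7.15, 7.17 and 6.84 in MO-Tbx5a, and 7.20 and 6.94 in MO-Ct. MO-Tbx5a+miR-19a was below MO-Ct without overlap, at a change of -0.29 with a 95% interval of -0.613 to 0.026. Against MO-Tbx5a it was at -0.28 (limma adjusted p = 0.0999), and at -0.38 and called without MO-Tbx5a replicate 3 (limma adjusted p = 0.0305). A_15_P626796 read 5.81 to 6.07 in MO-Tbx5a+miR-19a, 5.76 to 5.91 in MO-Tbx5a, and 6.09 and 6.07 in MO-Ct, and MO-Tbx5a differed from MO-Ct by -0.25 (95% interval -0.515 to 0.022).

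*wt1a*, a zinc finger factor of epicardium and of the podocytes of the kidney, was not called either. Its brightest probe, A_15_P341595, read 6.50, 6.51 and 6.62 in MO-Tbx5a+miR-19a, 6.06, 6.30 and 6.57 in MO-Tbx5a, and 6.61 and 6.31 in MO-Ct, with all groups overlapping. A_15_P132576 ran from 6.06 to 6.48 and A_15_P629231 from 5.04 to 5.65 over the 8 arrays. The greatest difference of the 3 probes was that of A_15_P629231 for MO-Tbx5a+miR-19a vs MO-Ct, -0.34 with a 95% interval of -0.627 to -0.049 (limma adjusted p = 0.124). Across the probes of *tbx18* and *wt1a*, the 95% intervals of MO-Tbx5a against MO-Ct reached no further than -0.515 and 0.303.

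Some probes that were not called also kept their groups apart. In 8 of the 18 probes the MO-Tbx5a and MO-Ct arrays did not overlap, against 62.0% of all probes in either direction. MO-Tbx5a was above in 5 of these 8. The MO-Tbx5a+miR-19a arrays did not overlap those of MO-Tbx5a in 8 probes, all with MO-Tbx5a+miR-19a below, against 57.2% of all probes in either direction. They did not overlap those of MO-Ct in 8 probes, again all below, against 43.6% of all probes in either direction. The shares of all probes by direction were not counted, so the direction in the members has no background to be set against.

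Whether probes of 1 transcript changed by different amounts was tested on the differences between 2 probes within each array, over 18600 such pairs. This test was added after the probe values were seen. Of the 15 pairs within the 7 genes, 3 differed for MO-Tbx5a vs MO-Ct (20.0%, against 43.7% of all pairs), 6 for MO-Tbx5a+miR-19a vs MO-Tbx5a (40.0%, against 49.2%) and 0 for MO-Tbx5a+miR-19a vs MO-Ct (against 3.66%; 1 pair had an unadjusted p under 0.05). Such differences were thus common on these arrays where MO-Tbx5a was one of the groups.

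All 3 *tbx2b* pairs differed for MO-Tbx5a+miR-19a vs MO-Tbx5a. The change of A_15_P107789 was below that of A_15_P342080 (difference -1.07 ± 0.15 SE, limma adjusted p = 0.000179). For *bmp4*, the change of A_15_P130716 for MO-Tbx5a vs MO-Ct was -0.72 ± 0.19 relative to that of A_15_P707836 (limma adjusted p = 0.0115). For *has2*, the change of A_15_P114018 exceeded that of the dim A_15_P135336 by 0.65 ± 0.20 for MO-Tbx5a vs MO-Ct (limma adjusted p = 0.0227). The count of 6 pairs fell to 2 without MO-Tbx5a+miR-19a replicate 1, and the count of 3 pairs to 1 without MO-Ct replicate 2.

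The paralogues of the other members are given by their brightest probes. *notch1a*, the second Notch1 receptor, averaged 11.50 in MO-Tbx5a+miR-19a, 12.32 in MO-Tbx5a and 11.58 in MO-Ct. It rose by 0.74 ± 0.15 (SE) for MO-Tbx5a vs MO-Ct (limma adjusted p = 0.00156) and changed by -0.83 ± 0.13 for MO-Tbx5a+miR-19a vs MO-Tbx5a (limma adjusted p = 0.000236). Its other probe, A_15_P259991, took another course and was lower in MO-Tbx5a than in MO-Ct (-0.48, limma adjusted p = 0.00874). For MO-Tbx5a+miR-19a vs MO-Tbx5a that probe changed by -0.04 (not called, limma adjusted p = 0.776). In MO-Tbx5a+miR-19a it was called below MO-Ct (-0.53, limma adjusted p = 0.0204). *wt1b* fell by 0.58 ± 0.13 for MO-Tbx5a vs MO-Ct (limma adjusted p = 0.00342) on one probe and was not called on the other (-0.13, limma adjusted p = 0.398). That other probe was dim, at 5.14 in MO-Tbx5a and 5.26 in MO-Ct. *has3*, a hyaluronan synthase, was higher in MO-Tbx5a+miR-19a than in MO-Tbx5a by 0.45 ± 0.11 (limma adjusted p = 0.00348), on a dim probe that averaged 5.79 and 5.33 in these groups. *has1*, *klf2b* and *bmp2b* were not called in any comparison.

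Other genes of the same pathways were counted from lists by the brightest probe of each gene. Of all named genes, 16.5% were called higher and 20.6% lower for MO-Tbx5a vs MO-Ct, 21.0% higher and 20.3% lower for MO-Tbx5a+miR-19a vs MO-Tbx5a, and 5.52% higher and 6.62% lower for MO-Tbx5a+miR-19a vs MO-Ct. The lists contain the members themselves, and some genes stand in more than 1 list. Each value below is that of 1 probe, and another probe of the same gene may give another change. Of all pairs of probes of 1 transcript, 43.7% differed for MO-Tbx5a vs MO-Ct and 49.2% for MO-Tbx5a+miR-19a vs MO-Tbx5a.

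Of 15 T-box factors, 3 rose and 1 fell for MO-Tbx5a vs MO-Ct, 1 rose and 6 fell for MO-Tbx5a+miR-19a vs MO-Tbx5a, and 0 rose and 3 fell for MO-Tbx5a+miR-19a vs MO-Ct. The list's median change was 0.24, -0.34 and -0.15 in these comparisons, against -0.03, 0.01 and -0.03 over all named genes. Besides *tbx2b* and *tbx2a*, the third gene that was lower than in MO-Ct was *tbx4*, a T-box factor of the hind limb or pelvic fin. *tbx4* averaged 6.80 in MO-Tbx5a+miR-19a, 8.14 in MO-Tbx5a and 7.77 in MO-Ct, with changes of -1.33 ± 0.16 (SE) against MO-Tbx5a (limma adjusted p = 2.65e-05) and -0.97 ± 0.17 against MO-Ct (limma adjusted p = 0.00505). *eomesa*, a T-box factor of the early embryo, went the other way, with -0.83 for MO-Tbx5a vs MO-Ct and 0.73 for MO-Tbx5a+miR-19a vs MO-Tbx5a. Its paralogue *eomesb* had the list's largest rise for MO-Tbx5a vs MO-Ct (1.305 ± 0.264 SE, limma adjusted p = 0.00189).

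Of 26 genes of the Notch pathway, 7 rose and 3 fell for MO-Tbx5a vs MO-Ct, 1 rose and 11 fell for MO-Tbx5a+miR-19a vs MO-Tbx5a, and 1 rose and 5 fell against MO-Ct. The risers in MO-Tbx5a included *nrarpb*, a feedback inhibitor (1.45 ± 0.12 SE, limma adjusted p = 7.1e-06), and *mib1*, the ubiquitin ligase that readies Delta ligands (1.05 ± 0.17, limma adjusted p = 0.000373). The ligand *dld* and the Notch target *her4.1* fell by 1.32 and 1.09. For MO-Tbx5a+miR-19a vs MO-Tbx5a, *rbpja*, the DNA-binding partner of the cleaved receptor, changed by -1.22 ± 0.12 (limma adjusted p = 8.92e-06) and *dld* by 1.09. *her4.1* was also below MO-Ct in MO-Tbx5a+miR-19a (change -1.09, limma adjusted p = 0.00149).

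Of 24 genes of the Bmp pathway, 5 rose and 3 fell for MO-Tbx5a vs MO-Ct, 5 rose and 7 fell for MO-Tbx5a+miR-19a vs MO-Tbx5a, and 1 rose and 0 fell against MO-Ct. The receptor *bmpr2a* averaged 8.35 in MO-Tbx5a+miR-19a, 9.78 in MO-Tbx5a and 8.36 in MO-Ct (changes of 1.41 for MO-Tbx5a vs MO-Ct and -1.43 for MO-Tbx5a+miR-19a vs MO-Tbx5a). The pathway target *id1* and the signal transducer *smad5* fell by 0.69 and 0.58 for MO-Tbx5a vs MO-Ct. The list's median was -0.06, -0.14 and -0.04 in the 3 comparisons.

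The wider list of the valve and atrioventricular canal, 28 genes of which 5 are members, had 8 genes that rose and 2 that fell for MO-Tbx5a vs MO-Ct, 2 that rose and 11 that fell for MO-Tbx5a+miR-19a vs MO-Tbx5a, and 0 that rose and 2 that fell against MO-Ct. The Wnt ligand *wnt9a* averaged 10.56 in MO-Tbx5a+miR-19a, 11.46 in MO-Tbx5a and 10.52 in MO-Ct, a rise of 0.94 ± 0.13 (SE) in MO-Tbx5a (limma adjusted p = 0.000202). The growth factor *tgfb3* and the heart factor *gata5* fell by 0.78 and 0.67 for MO-Tbx5a vs MO-Ct and were higher by 1.07 and 0.68 in MO-Tbx5a+miR-19a than in MO-Tbx5a. The sphingolipid transporter *spns2* was lower in MO-Tbx5a+miR-19a than in MO-Tbx5a (change -1.03 ± 0.35, limma adjusted p = 0.0276). The list's largest rise for MO-Tbx5a vs MO-Ct was that of *erbb2* (1.455 ± 0.496, limma adjusted p = 0.0328). Its change of -1.327 ± 0.444 for MO-Tbx5a+miR-19a vs MO-Tbx5a was the largest fall (limma adjusted p = 0.0253).

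Of 15 genes of the proepicardium and epicardium, 3 rose and 6 fell for MO-Tbx5a vs MO-Ct, 4 rose and 2 fell for MO-Tbx5a+miR-19a vs MO-Tbx5a, and 3 rose and 1 fell against MO-Ct. The list's median was -0.15 for MO-Tbx5a vs MO-Ct and 0.23 for MO-Tbx5a+miR-19a vs MO-Tbx5a, against 0.123 and -0.335 in the valve list. These epicardial medians are the values of *wt1a* and *tgm2b*, neither called (limma adjusted p = 0.471 and 0.2). The difference between the lists was not tested. For MO-Tbx5a vs MO-Ct, *cfd* fell by 0.87 (limma adjusted p = 0.000202). *hand2*, a transcription factor of the heart field, fell by 0.67 (limma adjusted p = 0.00485), and the cell adhesion gene *cdh2* rose by 0.66 (limma adjusted p = 0.00223). *cdh2* was also called above MO-Ct in MO-Tbx5a+miR-19a (0.61, limma adjusted p = 0.0151). *aldh1a2*, the enzyme that makes retinoic acid, was called below MO-Ct in MO-Tbx5a (change -0.525, limma adjusted p = 0.00304) and in MO-Tbx5a+miR-19a (-0.57, limma adjusted p = 0.00884). For MO-Tbx5a+miR-19a vs MO-Tbx5a it changed by -0.05 (not called, limma adjusted p = 0.733). In that comparison *gstm.3* (1.14) and *cfd* (0.86) rose most, and *vcam1b* (-0.96) and the member *bmp4* (-0.73) fell. *hand2* changed by 0.29 there (not called, limma adjusted p = 0.109). Against MO-Ct, *cfd* was at -0.01 in MO-Tbx5a+miR-19a (not called, limma adjusted p = 0.969).

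Of 17 flow-related genes and Krüppel-like factors, 5 rose and 2 fell for MO-Tbx5a vs MO-Ct, 1 rose and 4 fell for MO-Tbx5a+miR-19a vs MO-Tbx5a, and 0 rose and 2 fell against MO-Ct. *klf11a* fell by 1.29 and *klf4* rose by 0.70 for MO-Tbx5a vs MO-Ct. *camk2g1* rose most, by 1.13, and changed by -1.13 for MO-Tbx5a+miR-19a vs MO-Tbx5a. Of 12 genes of hyaluronan and cushion matrix, 2 rose and 3 fell in MO-Tbx5a, and 4 rose and 3 fell for MO-Tbx5a+miR-19a vs MO-Tbx5a, while against MO-Ct 0 were called, with changes of -0.46 to 0.46. The link protein *hapln1a*, which ties hyaluronan to proteoglycans, averaged 9.89 in MO-Tbx5a+miR-19a, 10.86 in MO-Tbx5a and 10.08 in MO-Ct. Fibronectin *fn1a* averaged 8.82, 10.22 and 9.28 in the same groups, and its receptor subunit *itga5* 9.58, 8.55 and 9.30.

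**Figure D3:**
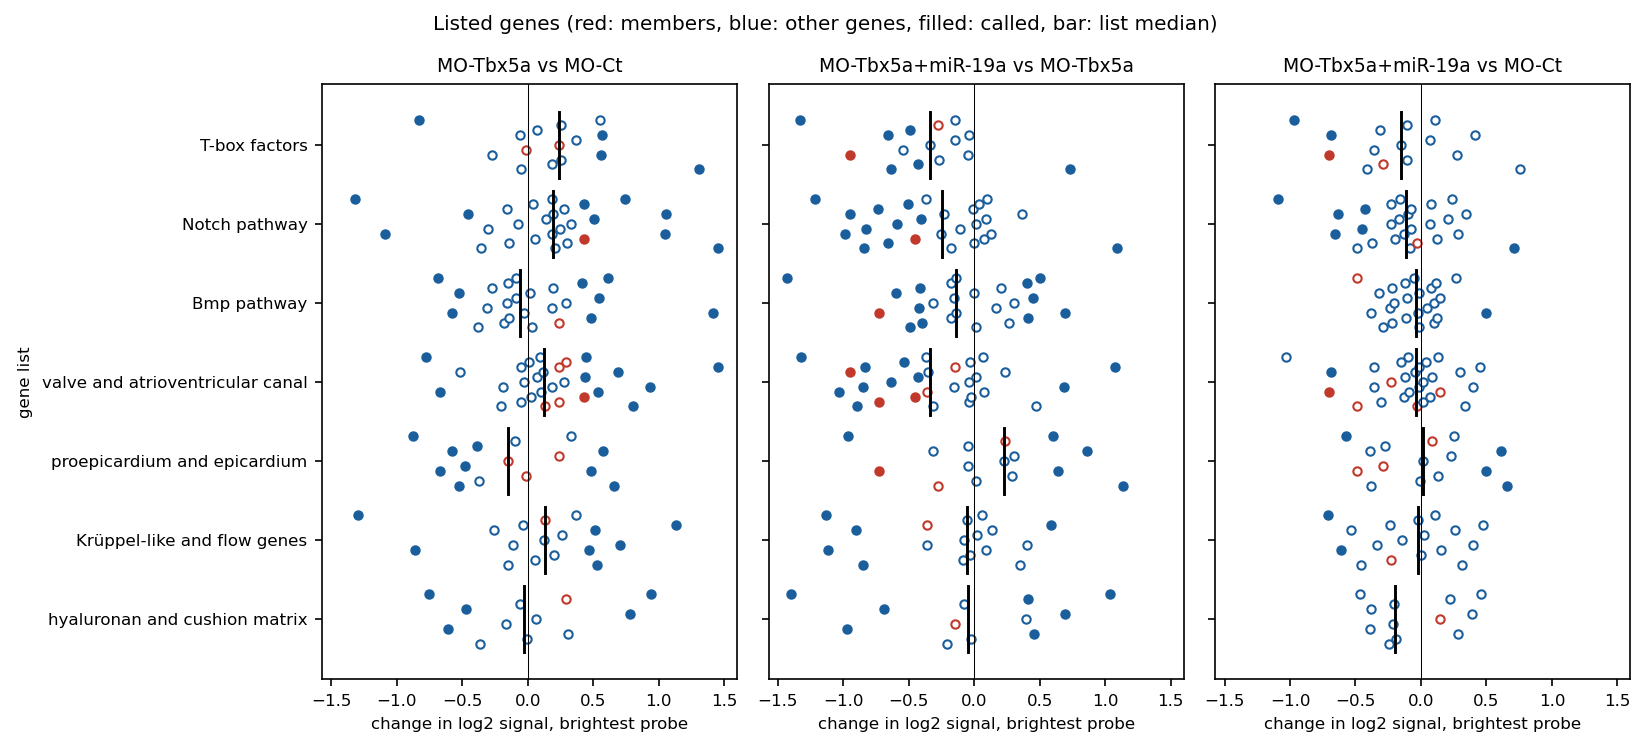
Change in log2 signal of the brightest probe (horizontal axes) of each gene in 7 lists, for the 3 comparisons; red points are members, blue points other genes, filled points called, and bars the list medians. In the middle panel 11 of 26 Notch genes and 11 of 28 valve genes were called lower, and in the right panel most points lie near 0.

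Markers of cell types in the embryo moved as well. In MO-Tbx5a+miR-19a all 6 lens markers were called below MO-Ct; their summed signal was 12.63 to 13.76 (log2 of the sum) in MO-Tbx5a+miR-19a, 12.73 to 13.04 in MO-Tbx5a, and 14.65 to 14.99 in MO-Ct. *tbx2b* is also transcribed in the eye, and the part of such tissues in its change was not tested. Of 8 cardiomyocyte markers, 2 rose and 1 fell for MO-Tbx5a vs MO-Ct. In MO-Tbx5a+miR-19a, 2 were called higher than in MO-Tbx5a (*actc1a* and the dim *nkx2.5*, at 5.61 against 5.18). Against MO-Ct, 2 different ones were called higher (*myh6* and *cmlc1*). The summed signal of the 8 markers was 17.28 to 17.49 in MO-Tbx5a+miR-19a, 16.20 to 16.45 in MO-Tbx5a and 16.84 to 17.11 in MO-Ct. This sum mostly follows 1 bright probe, that of the actin gene *actc1a*, which averaged 17.26 in MO-Tbx5a+miR-19a, 16.20 in MO-Tbx5a and 16.90 in MO-Ct. The list's median change for MO-Tbx5a vs MO-Ct was 0.29, opposite in sign to the sum. The atrial myosin *myh6* (0.90) and the natriuretic peptide gene *nppa* (0.39) were called higher and *actc1a* (-0.69) lower. The *nppa* probe was dim, at 5.83 in MO-Tbx5a and 5.44 in MO-Ct. Of 8 endothelial and endocardial markers, 1 rose (*tek*, 0.80) and 3 fell for MO-Tbx5a vs MO-Ct, with a median change of -0.20. Their summed signals were 12.40 to 12.48 in MO-Tbx5a+miR-19a, 12.55 to 12.68 in MO-Tbx5a and 12.57 to 12.65 in MO-Ct. Among 9 markers of pronephros and podocytes, where *wt1a* is also active, 1 rose and 1 fell for MO-Tbx5a vs MO-Ct, and among 8 of somites, where *tbx18* is, 0 rose and 1 fell. The pronephric markers summed to 12.58 to 12.71 in MO-Tbx5a+miR-19a, 12.96 to 13.16 in MO-Tbx5a and 12.67 to 12.82 in MO-Ct. Bright probes weigh most in this sum, among them *podxl*, which averaged 11.13, 11.96 and 11.16 in the same groups. The median change of the pronephric list for MO-Tbx5a vs MO-Ct was -0.11, opposite in sign to the sum. The somite markers summed to 12.21 to 12.57, 12.56 to 13.06, and 12.59 to 12.61 in the same groups, while their median change for MO-Tbx5a vs MO-Ct was -0.07. For MO-Tbx5a vs MO-Ct, 0 rose and 2 fell of 7 blood markers, 0 and 4 of 7 skeletal muscle markers, and 0 and 1 of 8 neural markers. For MO-Tbx5a+miR-19a vs MO-Tbx5a these counts were 2 and 1, 3 and 0, and 0 and 2. There, 1 endothelial marker rose and 1 fell, with 0 and 2 for pronephros and 2 and 1 for somites. Against MO-Ct, 2 endothelial, 1 skeletal muscle and 2 neural markers were called lower in MO-Tbx5a+miR-19a. Of the blood, pronephric and somite markers, 0 were called in that comparison. The part of these tissues in the members' values was not tested.

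The named genes whose brightest probe followed each member most closely over the 8 arrays, among 10241 compared, were found by Pearson's r, as a description. For *tbx2b* they were *tspan17* (r = 0.993), *lrp2a* (0.993) and *appa* (0.988), and for *notch1b* *lamb1a* (0.988), *mapre3b* (0.987) and *robo2* (0.981). For *bmp4* they were *ddit3* (0.976), *tbl1x* (0.976) and *ston2* (0.974), and for *klf2a* *cog2* (0.988), *kmt5aa* (0.983) and *arpp19a* (0.983). The closest gene reached 0.941 for *has2* (*tmem86b*), 0.962 for *tbx18* (*rpl11*) and 0.982 for *wt1a* (*zc3hc1*). With 8 arrays in 3 groups, these points share the group differences.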

How the data were processed

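RNA of 8 pools of whole zebrafish embryos was hybridised to 1-colour Agilent 4x44K arrays. The authors deposited a matrix of normalised log2 values; per their methods, signals were corrected by normexp with an offset, normalised between arrays by cyclic loess and tested in limma. Scanner files of 3 arrays gave the deposited intensity of each spot and other columns (probe names, accessions, quality flags), used for names and quality only. Groups came from sample titles. No column was left unmapped.

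The deposited values were fitted in limma 3.58.1 (R 4.3.3) with a mean for each of 3 groups over all 8 arrays (5 residual degrees of freedom before moderation), and p-values were adjusted by Benjamini-Hochberg over 39162 probes. Calls used the criteria of the study's methods. A gene is represented by its probe with the highest mean. All probes found for the members by accession are given. From each list, the 2 called genes that rose and the 2 that fell most could be named, with the paralogues of the members. Not all of these genes were named. The members and lists were chosen with earlier results of these data known. The lists held 32 genes without a named probe. The script was tested on simulated data. Alternatives changed the normalisation, a filter on dim probes, the moderation, the arrays in the fit, the thresholds, the rule for probes and the arrays left out. The precision is limited by 2 or 3 arrays in a group.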

Additional observations from a re-analysis of the deposited data

How the results depend on the processing

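All 10 calls on member probes stayed under quantile normalisation, cyclic loess, scaling to the 75th percentile, eBayes with trend and robust, and a fit of only the 2 groups compared. The deposited values were already normalised between arrays by cyclic loess per the authors' methods, so renormalising them is a weak check. The calls also stayed after removal of probes with a mean under 6 and with no fold minimum, but neither could readily lose one. The dimmest called probe, *bmp4* A_15_P707836, had a mean of 6.61, and lifting the fold minimum can only add calls. A fold change above 2 left 0 calls in each of the 3 comparisons and 0 probes called in both of the first 2. An adjusted p under 0.01 left 1 call for MO-Tbx5a vs MO-Ct, 1 for MO-Tbx5a+miR-19a vs MO-Ct, and 1 probe called in both of the first 2 comparisons. With the mean of all probes of a gene, 0 genes were called for MO-Tbx5a vs MO-Ct, against 1 by the brightest probe. Leaving out each array in turn gave 0 to 4 calls for MO-Tbx5a vs MO-Ct, 5 to 8 for MO-Tbx5a+miR-19a vs MO-Tbx5a, 0 to 3 for MO-Tbx5a+miR-19a vs MO-Ct, and 0 to 3 probes called in both of the first 2. Without MO-Ct replicate 2, 5 of the 10 calls were lost, and the remaining MO-Ct array was taken to vary like the other groups.

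Replicate numbers are shared between groups. Deviations of same-numbered arrays correlated at -0.222 to 0.178, and those of other pairs at -0.178 to 0.222. The deviations of 2 MO-Ct arrays mirror each other, so these ranges cannot decide whether the numbers pair the arrays. Between MO-Tbx5a and MO-Tbx5a+miR-19a, same-numbered arrays correlated at -0.01, -0.112 and -0.121, and other pairs at -0.024 to 0.142. Same-numbered arrays of these groups were thus not more alike than others. With the replicate number as a block, 9 of 10 calls stayed; 1 call remained for MO-Tbx5a+miR-19a vs MO-Ct, since *tbx2b* A_15_P141716 was at -0.55 (limma adjusted p = 0.0551).

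Changes of member probes that turned sign were all uncalled and near 0. For MO-Tbx5a vs MO-Ct, *bmp4* A_15_P130716 was 0.04 with the block and -0.32 to 0.067 without single arrays, and *tbx18* A_15_P170206 0.009 under quantile normalisation, 0.078 with the block and -0.15 to 0.11 without single arrays. There, single arrays moved *notch1b* A_15_P131531 between -0.04 and 0.12, *wt1a* A_15_P132576 between -0.045 and 0.095, and *wt1a* A_15_P629231 between -0.25 and 0.043. For MO-Tbx5a+miR-19a vs MO-Tbx5a they moved *bmp4* A_15_P130716 between -0.23 and 0.10 and *tbx18* A_15_P626796 between -0.013 and 0.117. For MO-Tbx5a+miR-19a vs MO-Ct, *notch1b* A_15_P118429 was 0.016 under cyclic loess, 0.002 with 75th percentile scaling, 0.002 with the block and -0.20 to 0.14 without single arrays; *has2* A_15_P135336 was 0.013 with 75th percentile scaling and -0.12 to 0.12 without single arrays; *wt1a* A_15_P341595 was -0.001 with the block and -0.067 to 0.23 without single arrays; *bmp4* A_15_P707836 was 0.023 with the block and -0.10 to 0.017 without single arrays; and *notch1b* A_15_P160746 was -0.093 to 0.27 without single arrays. The cause of these changes was not tested, and the counts over lists of genes were made with the main settings only.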
